A study of Mus musculus with 6 samples.

Results

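Genes of platelet-derived growth factor (PDGF) signalling and of pericytes were followed in whole lungs of E18.5 mouse fetuses, near the end of gestation. The 10 genes, of 18193 named on the array, were taken by symbol: the ligand genes Pdgfa, Pdgfb, Pdgfc and Pdgfd, the receptor genes Pdgfra and Pdgfrb, and the pericyte genes Cspg4, Rgs5, Notch3 and Higd1b. They held 23 of the 45037 probe sets that were not Affymetrix controls, and 22 of these were bright enough to be tested. Total RNA of whole lungs was hybridised to Affymetrix mouse arrays, 1 array per animal, and the animals formed 2 groups of 3. The Cre-labelled lungs are Nfib f/f with Dermo1-Cre, and the control-labelled lungs are Nfib f/f without Cre. Floxed Nfib, which encodes nuclear factor I B, a transcription factor, was thus present in all 6. The Dermo1 locus, also called Twist2, drives Cre in mesenchymal cells, and a whole lung mixes these with epithelium, endothelium and blood.

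PDGF ligands are dimers that activate receptor tyrosine kinases on mesenchymal cells. In the fetal lung, epithelial cells make PDGF-A, which acts through the alpha receptor on the fibroblasts that become alveolar myofibroblasts, and endothelial cells make PDGF-B, which recruits pericytes through the beta receptor. PDGF-C and PDGF-D are secreted in a latent form and become active once proteases remove a CUB domain. Pericytes are mural cells wrapped around capillaries; they carry the beta receptor and the proteoglycan encoded by Cspg4.

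In the sequences 250 bases before the gene start that RefSeq gives for GRCm38.p6, the half-site of nuclear factor I proteins, TTGGC, was looked for on both strands. They are shown for Pdgfc, the ligand gene that rose, and for Pdgfd, the other CUB domain ligand gene, which had a lower mean. Capitals mark the half-site, which was found once in the Pdgfd window and not in the Pdgfc window. The Pdgfc window is chr3:81036166-81036415 and the Pdgfd window chr9:6168236-6168485, both on the plus strand.
Pdgfc: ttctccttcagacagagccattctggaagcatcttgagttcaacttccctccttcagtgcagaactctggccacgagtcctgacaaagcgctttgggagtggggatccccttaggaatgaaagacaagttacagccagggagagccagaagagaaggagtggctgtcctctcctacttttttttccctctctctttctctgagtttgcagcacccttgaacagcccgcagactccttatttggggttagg
Pdgfd: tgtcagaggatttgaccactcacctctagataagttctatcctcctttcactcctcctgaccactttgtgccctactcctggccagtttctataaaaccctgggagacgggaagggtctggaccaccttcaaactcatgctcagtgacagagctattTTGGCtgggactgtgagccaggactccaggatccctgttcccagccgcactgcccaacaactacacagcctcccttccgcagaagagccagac
Windows of 7 of the 10 genes were examined, and Higd1b, the gene that fell, was not among these. The half-site was in a window of 3 of the 7, Pdgfd, Cspg4 and Notch3. It was in none of those of the other 4, Pdgfa, Pdgfc, Pdgfra and Rgs5. Of these 4, Pdgfa, Pdgfra and Rgs5 had lower means by their brightest probe sets, as Pdgfd did with the half-site. The groups of Cspg4 and Notch3 overlapped. Of all 32851 windows of this length in the table, 41.5% hold it. The full palindrome, TTGGC and GCCAA with any 5 bases between them, was in no window of these genes and in 0.0365% of all windows. A match is a run of letters only.

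Several facts about the arrays bear on every value below. Signal of Nfib itself was higher in the Cre-labelled lungs: its brightest probe set read 11.24, 11.16 and 11.49 in Cre-labelled and 10.24, 10.32 and 10.17 in control-labelled lungs on the log2 scale, and 5 of 6 tested Nfib probe sets rose, by 2.05-fold to 2.20-fold. The position of these probes relative to the deleted part was not known here, so they cannot check the labels, and each direction below rests on the labels as deposited. The lung epithelial genes Sftpc (12.23 to 13.52 over the 6 arrays), Scgb1a1 (11.88 to 12.98) and Nkx2-1 (4.24 to 5.29) were each above the level required for testing on every array. Heart muscle RNA differed between arrays: all 10 cardiac markers had a lower mean in Cre-labelled lungs, none passed the test, and their summed signal ran between 1904 and 4910 in Cre-labelled and between 3214 and 12566 in control-labelled lungs. Control-labelled replicate 1 also stood apart by its skeletal muscle genes, with a summed signal of 3471, against 236 to 508 on the other 5 arrays. Each group held 1 female and 2 male fetuses by Xist signal.

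Each difference below is the Cre-labelled mean minus the control-labelled mean on the log2 scale. Its standard error (SE) comes from limma, fitted to all 27022 tested probe sets, and a probe set was called when its Benjamini-Hochberg adjusted p over all of them was below 0.05. By this rule 3.56% of all tested probe sets were called, 1.41% as higher and 2.16% as lower. Of the 22 tested probe sets of the 10 genes, 1 was called higher, in Pdgfc, 1 was called lower, in Higd1b, and 20 were not called. The Cre-labelled arrays lay below all control-labelled arrays in 9 of the 22 and above them in 2, against 12.8% and 13.3% of all tested probe sets. By the brightest probe set of each gene, 6 of the 10 lay below and 1 above without overlap, against 16.5% and 15.3% of 12826 genes; 1 rose, 1 fell and 8 were not called, where 4.96% of all genes were called, 1.92% as higher and 3.04% as lower. The median log2 difference of the 10 was -0.31, against -0.01 for all genes. The 10 genes and the lists below were chosen with earlier results of these data known. Counts set against the shares of all genes are therefore descriptive. Levels of different probe sets are not comparable, so the genes are not ranked by level.

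**Figure D1:**
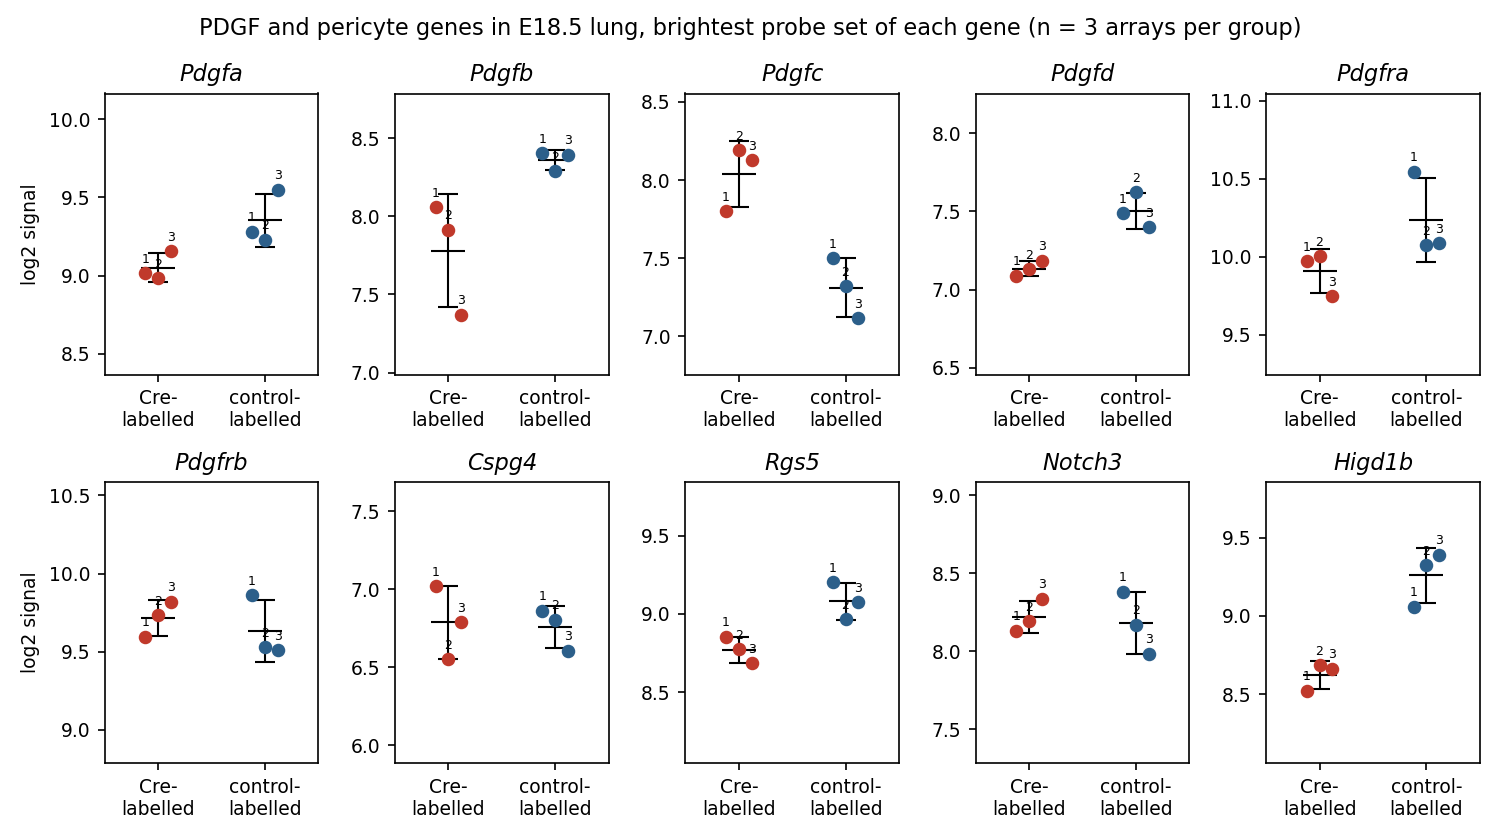
Log2 signal (vertical axes, each spanning the same log2 range) of the brightest probe set of each of the 10 genes, with a point for each array numbered by replicate, Cre-labelled left and control-labelled right, and bars for mean ± SD (n = 3). The groups do not overlap in Pdgfa, Pdgfb, Pdgfc, Pdgfd, Pdgfra, Rgs5 and Higd1b, and the Cre-labelled arrays are the higher ones in Pdgfc alone of these 7.

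Among the ligand genes, Pdgfc rose. Its brightest probe set read 7.80, 8.19 and 8.13 in Cre-labelled and 7.50, 7.32 and 7.12 in control-labelled lungs. Every Cre-labelled array was above every control-labelled one, and the difference was 1.66-fold (log2 difference 0.73 ± 0.15 SE, limma adjusted p = 0.031). The other Pdgfc probe set read 7.86, 7.58 and 7.59 in Cre-labelled and 7.27, 6.96 and 6.68 in control-labelled lungs. It had nearly the same difference (0.70 ± 0.17 SE), without overlap, and narrowly missed the threshold (adjusted p = 0.053). PDGF-C signals mainly through the alpha receptor. The call of the brightest Pdgfc probe set was lost on leaving out Cre-labelled replicate 2 or 3 or any control-labelled array, and without the intensity trend (adjusted p 0.054 to 0.093). It held on leaving out Cre-labelled replicate 1 (adjusted p = 0.039).

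Pdgfa, the ligand gene of the epithelium, had lower means without passing the test. Its brightest probe set read 9.02, 8.98 and 9.15 in Cre-labelled and 9.28, 9.23 and 9.55 in control-labelled lungs (log2 difference -0.30 ± 0.11 SE, limma adjusted p = 0.18). The other probe set read 8.74, 8.65 and 8.30 in Cre-labelled and 9.001, 9.05 and 9.09 in control-labelled lungs (-0.48 ± 0.12 SE, adjusted p = 0.066). In neither did the groups overlap. With the mean of the Pdgfa probe sets in place of the brightest one the gene passed (-0.39 ± 0.09 SE, adjusted p = 0.043). Of the 8 epithelial markers 7 had a lower mean and 1 fell, the surfactant protein gene Sftpb (-1.27 ± 0.20 SE, adjusted p = 0.015). The share of all genes called lower was 3.04%. In 4 of the 8 every Cre-labelled array was below, against 16.5% of all genes. In 1, Epcam, every one was above (0.32 ± 0.12 SE, adjusted p = 0.18), against 15.3%. Their summed signal lay between 17944 and 18607 in Cre-labelled and between 19166 and 31238 in control-labelled lungs. Sftpc and Scgb1a1 weigh most in these sums, and the groups of Sftpc overlapped (-0.07 ± 0.30 SE, adjusted p = 0.93). The part of the epithelial markers in the Pdgfa values was not tested.

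Pdgfb, the endothelial ligand gene, read 8.06, 7.91 and 7.37 in Cre-labelled and 8.40, 8.29 and 8.39 in control-labelled lungs. The groups did not overlap, and Cre-labelled replicate 3 was lowest (log2 difference -0.58 ± 0.17 SE, limma adjusted p = 0.092). The dimmer Pdgfb probe set repeated this order, with 5.79, 5.62 and 4.77 in Cre-labelled and 5.83, 5.82 and 5.85 in control-labelled lungs (-0.44 ± 0.27 SE, adjusted p = 0.42). Without Cre-labelled replicate 3 the difference was -0.38 for the brighter probe set (adjusted p = 0.13) and -0.13 for the dimmer one (adjusted p = 0.80). The mean of the 10 endothelial markers was also lowest on that array, at 9.08, against 9.37 and 9.47 on the other Cre-labelled and 9.60 to 9.66 on the control-labelled arrays. Cre-labelled replicate 3 also stood apart in its control probe sets for RNA quality: the log2 signal of the 3′ minus the 5′ probe set was 0.83 for Actb, against 0.35 to 0.52 on the other 5 arrays, and 0.07 for Gapdh, against -0.34 to -0.05. Its part in the Pdgfb values was not tested beyond leaving the array out. In RNA of a whole lung, fewer cells of a type and less RNA per cell cannot be told apart.

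Pdgfd, whose product acts through the beta receptor, read 7.09, 7.13 and 7.18 in Cre-labelled and 7.49, 7.62 and 7.40 in control-labelled lungs by its brightest probe set (log2 difference -0.37 ± 0.12 SE, limma adjusted p = 0.12). The groups did not overlap. A dimmer probe set overlapped (4.61 to 4.74 in Cre-labelled and 4.38 to 5.09 in control-labelled lungs, adjusted p = 0.84), and the third Pdgfd probe set was the 1 of the 23 below the level required for testing, with 1.55 to 3.12 in Cre-labelled and 2.51 to 3.29 in control-labelled lungs.

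The change of Pdgfc relative to the other ligand genes was compared within each array. The log2 signal of Pdgfc minus that of Pdgfa was -1.22, -0.79 and -1.03 in Cre-labelled and -1.78, -1.91 and -2.43 in control-labelled lungs, a shift of 1.03 ± 0.23 SE. The shift was 1.31 ± 0.32 SE against Pdgfb and 1.10 ± 0.14 SE against Pdgfd. In none of these 3 did the groups overlap, and each had an exact two-sided permutation p of 0.10, the smallest that 3 against 3 arrays allow (0.125 adjusted over the 5 within-array comparisons made). By these probe sets Pdgfc lay wholly above and Pdgfa, Pdgfb and Pdgfd wholly below. The lack of overlap and the permutation p of 0.10 follow from that and add no separate result. This design cannot reach 0.05 by permutation, and the pairs were chosen after the values were seen. The shifts compare changes of probe sets, not amounts of the ligands.

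**Figure D2:**
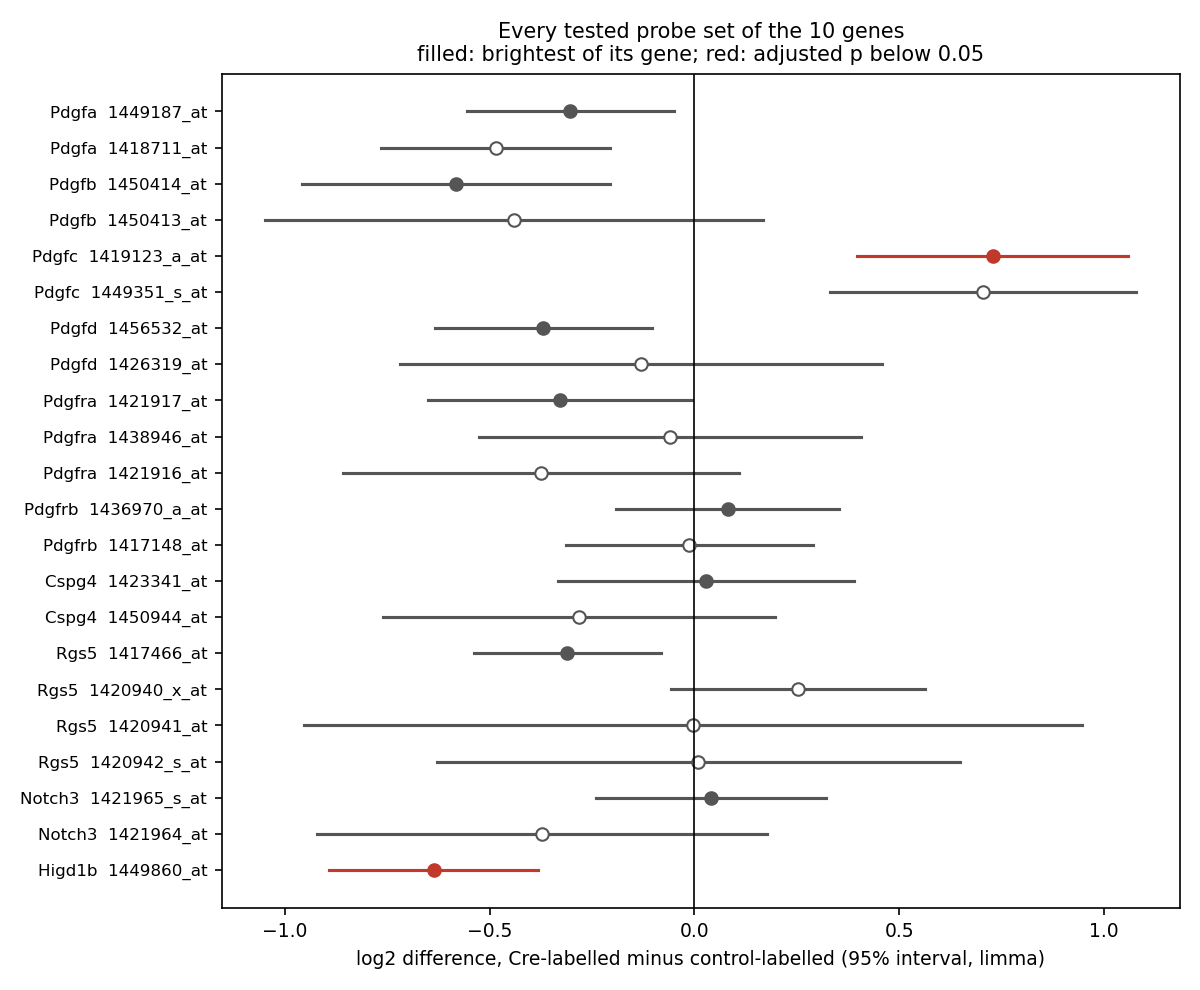
Log2 difference (horizontal axis, Cre-labelled minus control-labelled) with its 95% interval from limma for each of the 22 tested probe sets, ordered from ligands through receptors to pericyte genes. The intervals of both Pdgfc probe sets lie above 0, while the 4 Rgs5 probe sets lie on either side of 0, from -0.31 to 0.25.

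Neither receptor gene passed the test. Pdgfra, which marks fibroblasts and the precursors of alveolar myofibroblasts, read 9.97, 10.003 and 9.75 in Cre-labelled and 10.54, 10.07 and 10.09 in control-labelled lungs. Its groups did not overlap but lay close, and control-labelled replicate 1 was the highest (log2 difference -0.33 ± 0.14 SE, limma adjusted p = 0.25; 95% interval -0.65 to -0.01). Without that array the difference was -0.17 (adjusted p = 0.52). The other Pdgfra probe sets differed by -0.06 ± 0.21 SE and -0.37 ± 0.21 SE (adjusted p 0.91 and 0.38). Pdgfrb, the receptor gene of pericytes, read 9.59, 9.73 and 9.82 in Cre-labelled and 9.86, 9.53 and 9.51 in control-labelled lungs, and the groups overlapped. Its difference was 0.08 ± 0.12 SE (adjusted p = 0.77), with a 95% interval of -0.19 to 0.35, and that of its other probe set -0.01 ± 0.13 SE (adjusted p = 0.97; -0.31 to 0.29). These intervals, made for each probe set alone, hold no change as large as the 0.73 of Pdgfc in either direction.

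Of the 4 pericyte genes, Higd1b fell. This gene encodes a mitochondrial membrane protein of the hypoxia-inducible domain family and is used as a pericyte marker in mouse lung. It read 8.52, 8.68 and 8.66 in Cre-labelled and 9.06, 9.32 and 9.39 in control-labelled lungs, without overlap. The difference was 1.55-fold (log2 difference -0.64 ± 0.11 SE, limma adjusted p = 0.021; 1 probe set). The call was lost without Cre-labelled replicate 1 or 3, without control-labelled replicate 2 or 3, with the mean of the cardiac markers as a covariate and without the intensity trend (adjusted p 0.051 to 0.086), while the log2 difference lay between -0.74 and -0.56 in all 16 alternatives.

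The other 3 pericyte genes did not pass. Rgs5, which encodes a GTPase-activating protein for G protein alpha subunits, read 8.85, 8.77 and 8.69 in Cre-labelled and 9.20, 8.97 and 9.07 in control-labelled lungs by its brightest probe set. These groups did not overlap (log2 difference -0.31 ± 0.10 SE, limma adjusted p = 0.13). The second Rgs5 probe set went the other way, with 7.34, 7.30 and 7.41 in Cre-labelled and 7.34, 6.96 and 6.99 in control-labelled lungs (0.25 ± 0.14 SE, adjusted p = 0.35). Within each array the brightest minus the second was 1.27 to 1.52 in Cre-labelled and 1.87 to 2.09 in control-labelled lungs, without overlap (exact two-sided permutation p = 0.10, the smallest possible). The remaining Rgs5 probe sets, at 5.02 and 5.72 on average in Cre-labelled lungs, differed by 0.01 ± 0.28 SE and -0.0036 ± 0.42 SE. The 4 probe sets thus gave Rgs5 no single direction. The second carries a suffix that Affymetrix gives to probe sets that may also bind other transcripts. Such suffixes are also on the dimmest Rgs5 probe set, the dimmer Pdgfc one and the brightest Notch3 one. Their part in the values was not tested.

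Cspg4, the gene of the pericyte surface proteoglycan, read 7.02, 6.55 and 6.79 in Cre-labelled and 6.86, 6.81 and 6.61 in control-labelled lungs, and the groups overlapped (log2 difference 0.03 ± 0.16 SE, limma adjusted p = 0.95). Its other probe set differed by -0.28 ± 0.21 SE (adjusted p = 0.52). Notch3, a receptor gene of mural cells, read 8.13, 8.19 and 8.34 in Cre-labelled and 8.38, 8.17 and 7.99 in control-labelled lungs (0.04 ± 0.12 SE, adjusted p = 0.90). Its dimmer probe set differed by -0.37 ± 0.24 SE (adjusted p = 0.45), with 5.78 to 5.90 in Cre-labelled and 5.65 to 6.62 in control-labelled lungs. For both genes the sign depended on the probe set and on the fit.

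Other genes used as pericyte markers also had mostly lower means. Of 18 such genes 16 were tested: 1 was called lower, 15 were not called and none was called higher. Their median log2 difference was -0.29, against -0.01 for all genes. Means were lower in 13 of the 16 and in 6607 of all 12826 genes. In 5 of the 16 every Cre-labelled array was below, and in 1, the transcription factor gene Foxf2 (0.57 ± 0.26 SE, adjusted p = 0.26), every one was above, against 16.5% and 15.3% of all genes. The share of all genes called lower was 3.04%. Ndufa4l2, which encodes a mitochondrial complex subunit induced by hypoxia, fell 1.86-fold (-0.90 ± 0.17 SE, limma adjusted p = 0.025). It read 6.94, 6.35 and 6.90 in Cre-labelled and 7.55, 7.73 and 7.60 in control-labelled lungs, with every Cre-labelled array below. Its call was lost without any 1 of the control-labelled arrays, with the cardiac covariate and without the intensity trend (adjusted p 0.070 to 0.095). Abcc9, a subunit gene of the potassium channel of pericytes, read 8.31, 8.53 and 8.51 in Cre-labelled and 8.85, 8.61 and 8.84 in control-labelled lungs (-0.31 ± 0.11 SE, adjusted p = 0.16), and Vtn, the vitronectin gene, differed by -0.77 ± 0.31 SE (adjusted p = 0.20). Anpep and Foxc1 lay below the level required for testing. The 8 pericyte markers Cspg4, Rgs5, Notch3, Higd1b, Pdgfrb, Abcc9, Kcnj8 and Cox4i2 were above the level required for testing on every array. Their lowest value on any array was 5.71.

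Markers of several other cell types had lower means beside these. Of 10 endothelial markers 9 had a lower mean and none passed, with a median log2 difference of -0.36. Every Cre-labelled array was below in 5 of them and above in 1, Tek, against 16.5% and 15.3% of all genes. Their summed signal was 6898 to 8676 in Cre-labelled and 9466 to 10685 in control-labelled lungs. All 10 were above the level required for testing on every array, the lowest value being 6.83. The summed signal of the 18 other pericyte genes was 5468 to 5595 in Cre-labelled and 6022 to 6175 in control-labelled lungs. Gucy1a1, Gucy1b1 and Mcam weigh most in these sums. They differed by -0.0045 ± 0.10 SE, -0.11 ± 0.10 SE and -0.21 ± 0.10 SE, and none of them passed. All 6 immune markers had a lower mean and 1 fell, the lysozyme gene Lyz2 (-0.88 ± 0.14 SE, limma adjusted p = 0.015). The share of all genes called lower was 3.04%. In 2 of the 6, Lyz2 and Cd52, every Cre-labelled array was below, and the groups of the others overlapped. Summed immune signals were 2879 to 3663 in Cre-labelled and 4778 to 5610 in control-labelled lungs. Lyz2, the brightest of the 6, weighs most in these sums. The mean log2 of the 6 was 8.06 to 8.39 in Cre-labelled and 8.46 to 8.79 in control-labelled lungs. Of 5 mesothelial markers 4 had a lower mean and 2 fell, Msln (-1.55 ± 0.17 SE, adjusted p = 0.0049) and Krt19 (-0.63 ± 0.14 SE, adjusted p = 0.039). The mean of Wt1 was higher (0.47 ± 0.30 SE, adjusted p = 0.44). In Msln and Krt19 every Cre-labelled array was below, and the groups of Upk3b, Wt1 and Lrrn4 overlapped. Summed mesothelial signals were 1664 to 2018 in Cre-labelled and 2864 to 3549 in control-labelled lungs. Krt19, the brightest of the 5, weighs most in these sums. The 3 matched erythroid markers summed to 441 to 829 in Cre-labelled and 940 to 1067 in control-labelled lungs, and neither of the 2 tested passed. Smooth muscle markers had a median of 0.15, with 4 of 6 higher, none called and overlapping summed signals (1020 to 1402 in Cre-labelled and 1025 to 1399 in control-labelled lungs). In 2 of these 6, Cnn1 and Actg2, every Cre-labelled array was above, and in none was every one below. The part of these cell types in the pericyte values was not tested, apart from the fit with the cardiac covariate. Of 8 genes through which endothelial cells and pericytes act on each other, none passed: S1pr1, a sphingosine phosphate receptor gene, differed by -0.60 ± 0.15 SE (limma adjusted p = 0.060), Hbegf, a growth factor gene, by -0.54 ± 0.17 SE (adjusted p = 0.12) and Tgfb1 by -0.77 ± 0.37 SE (adjusted p = 0.29).

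**Figure D3:**
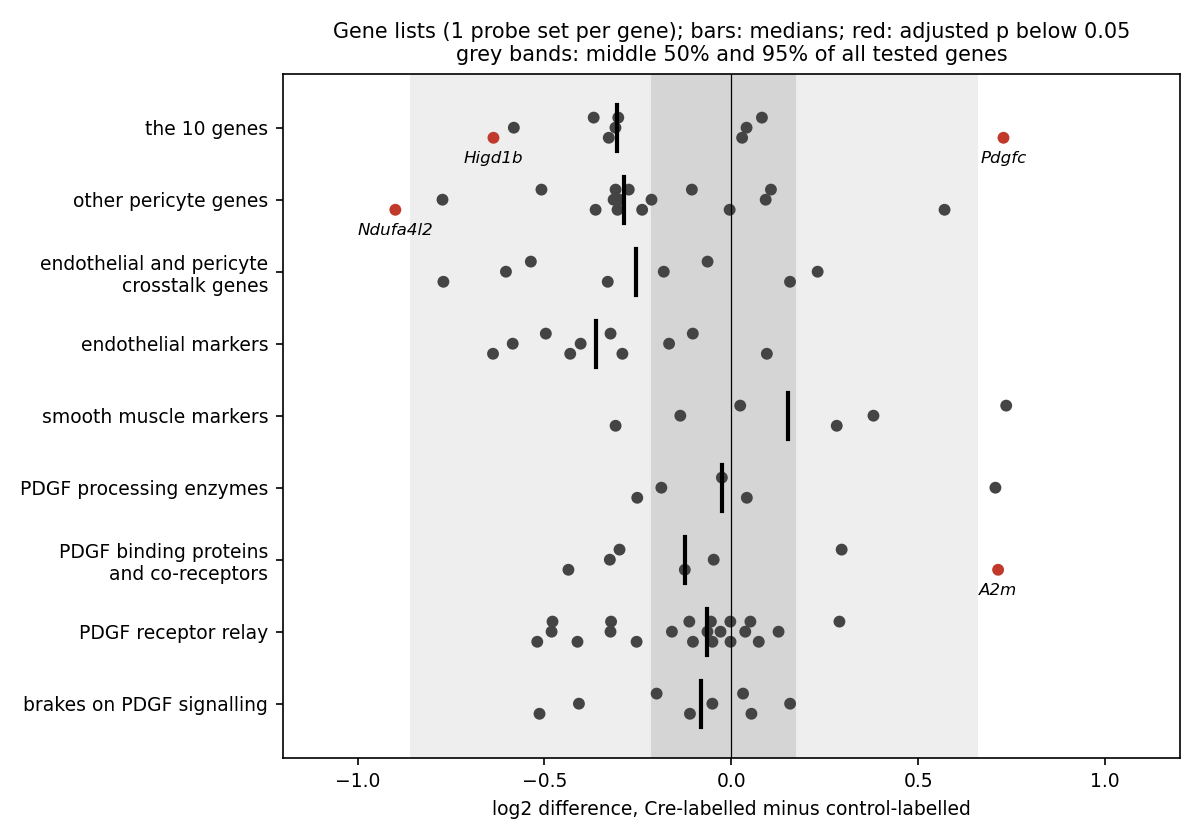
Log2 differences (horizontal axis, Cre-labelled minus control-labelled) of the tested genes of 9 lists, a point for each gene, with black bars for list medians and grey bands for the middle 50% and 95% of all tested genes. Among these 9 lists, medians are lowest for endothelial markers (-0.36), the 10 genes (-0.31) and other pericyte genes (-0.29). The medians of PDGF processing and relay lie close to 0. Cell type marker lists not drawn had medians of -0.34 (epithelial), -0.36 (immune), -0.55 (liver), -0.62 (erythroid), -0.63 (mesothelial), -1.14 (cardiac) and -1.49 (skeletal muscle).

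Of 48 further genes that process, bind, relay or limit PDGF signals 42 were matched and 41 tested. Among them 1 was called higher, none was called lower and 40 were not called, where 1.92% of all genes were called higher and 3.04% lower. Their median log2 difference was -0.06, against -0.01 for all genes, and 29 of the 41 had a lower mean. In 9 of the 41 every Cre-labelled array was below and in 3 every one was above, against 16.5% and 15.3% of all genes. The gene that rose was A2m, which encodes the protease inhibitor alpha-2-macroglobulin, a carrier that binds PDGF. It read 9.59, 9.79 and 9.98 in Cre-labelled and 8.97, 9.10 and 9.15 in control-labelled lungs, without overlap (1.64-fold, 0.71 ± 0.12 SE, limma adjusted p = 0.016). The call was lost without control-labelled replicate 1 or 2, with the cardiac covariate and without the intensity trend (adjusted p 0.055 to 0.077).

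Among the enzymes that process ligands none of 5 tested passed. The convertase gene Pcsk6 read 7.46, 7.28 and 7.44 in Cre-labelled and 7.08, 6.63 and 6.35 in control-labelled lungs, without overlap (log2 difference 0.71 ± 0.18 SE, limma adjusted p = 0.069). The convertase gene Pcsk5 differed by -0.19 ± 0.11 SE, and St14, the gene of a protease that activates CUB domain ligands, by -0.25 ± 0.13 SE. Of the other binding proteins, the thrombospondin gene Thbs1 differed by 0.30 ± 0.13 SE (adjusted p = 0.24) and Sparc, whose product binds PDGF-B, by -0.44 ± 0.20 SE (adjusted p = 0.26).

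None of 21 tested genes that relay the receptors' signal passed, and 16 of them had a lower mean. In 6 of the 21 every Cre-labelled array was below and in 1 every one was above, against 16.5% and 15.3% of all genes. The smallest p belonged to the transcription factor gene Stat3, which read 7.94, 8.34 and 8.21 in Cre-labelled and 8.77, 8.58 and 8.58 in control-labelled lungs (log2 difference -0.48 ± 0.12 SE, limma adjusted p = 0.070). The groups of Stat3 did not overlap. Pik3r1, the regulatory subunit gene of the kinase PI3K, differed by -0.48 ± 0.15 SE (adjusted p = 0.12) and the adaptor gene Nck1 by -0.32 ± 0.10 SE (adjusted p = 0.13). Of 8 genes that limit the signal none passed, and those with the smallest p were the ubiquitin ligase gene Cblb (-0.51 ± 0.15 SE, adjusted p = 0.10), Socs3 (-0.41 ± 0.15 SE) and the phosphatase gene Ptpn1 (-0.20 ± 0.11 SE).

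Of 8 genes around Notch3 1 fell, Hey1, a transcription factor gene that Notch receptors activate. It read 7.17, 6.83 and 7.29 in Cre-labelled and 8.34, 8.15 and 8.16 in control-labelled lungs, a 2.18-fold difference without overlap (log2 difference -1.12 ± 0.14 SE, limma adjusted p = 0.0068). It passed in all 15 alternative fits. The ligand gene Dll4 (-0.40 ± 0.36 SE) and the coactivator gene Maml1 (0.25 ± 0.11 SE) did not pass. Hey1 is also expressed outside pericytes, among other cells in endothelium. Of 13 genes of the alveolar myofibroblasts that arise from Pdgfra-positive cells 2 fell, the elastin gene Eln (-1.19 ± 0.12 SE, adjusted p = 0.0039) and the hedgehog inhibitor gene Hhip (-0.44 ± 0.10 SE, adjusted p = 0.045), and Tgfb1i1 did not pass (-0.60 ± 0.17 SE, adjusted p = 0.096). Means were higher in 5 of the 13, none of them called. Among these, the contractile genes Cnn1 (0.74 ± 0.24 SE, adjusted p = 0.14) and Actg2 (0.38 ± 0.13 SE, adjusted p = 0.14) had every Cre-labelled array above, and both are also smooth muscle markers here. In all, 2 of the 13 lay wholly above and 4 wholly below, against 15.3% and 16.5% of all genes, and 3.04% of all genes were called lower.

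Genes with the array pattern most like that of each called gene were found by the root mean square distance between log2 values centred over the 6 arrays, among 12270 named genes. For Pdgfc they were Kank4, the laminin gene Lama1, Dkc1, Ntm and Evc, at distances of 0.07 to 0.10 on the log2 scale. For Higd1b they were Abhd14b, Gstk1, Ccdc189, the lipid transporter gene Abca3 and Car8, at 0.04 to 0.07.

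**Figure D4:**
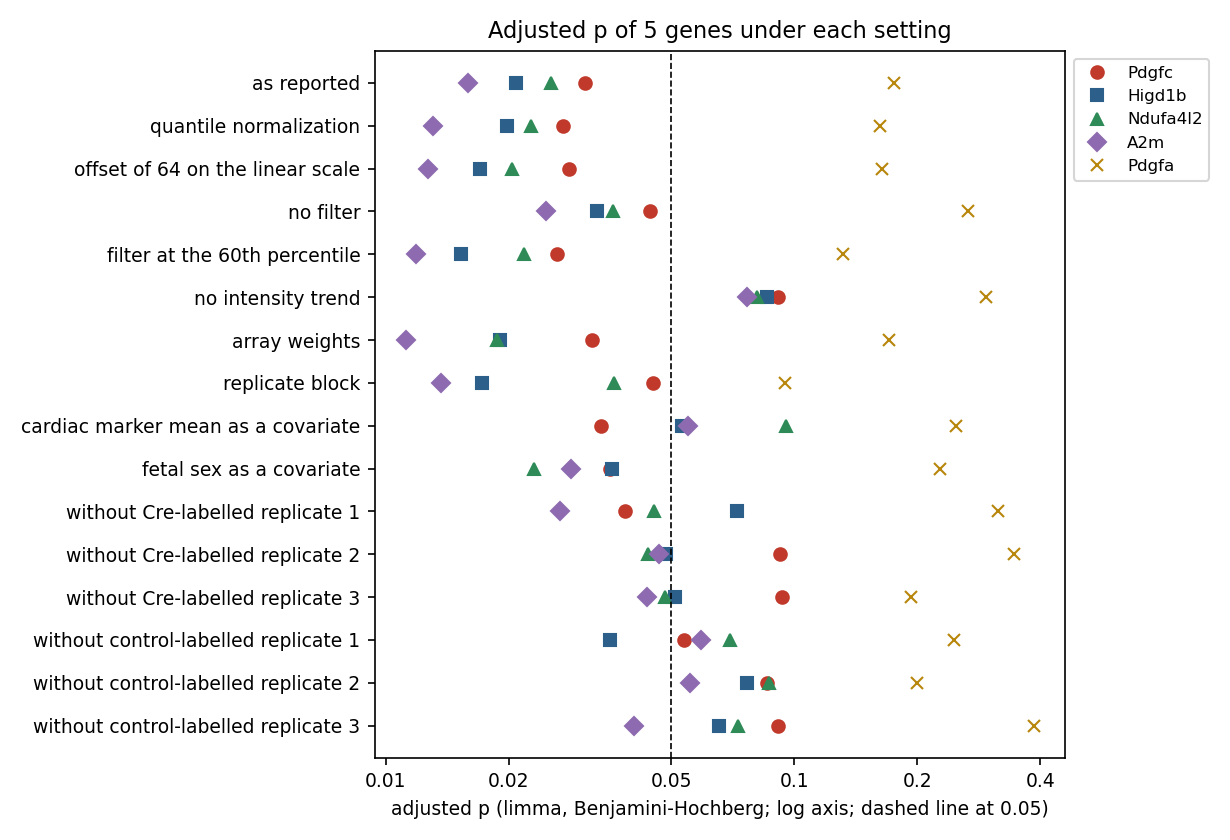
Adjusted p from limma (horizontal log axis, dashed line at 0.05) of Pdgfc, Higd1b, Ndufa4l2, A2m and Pdgfa in the reported fit and in 15 alternative fits (vertical axis). Leaving out 1 array puts the 4 called genes between 0.027 and 0.093, on either side of the line, and the brightest Pdgfa probe set stays above it in every fit shown.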

How the data were processed

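RNA of 6 fetal mouse lungs was measured on Affymetrix arrays. Tools listed are MAS5 and affy, with no version, per the submitters' processing notes. The authors deposited log2 signals whose linear mean, trimmed by 2% at each end, is 150.04 to 150.05 on every array; 4.93% to 6.49% of an array's values lie below 0. They were used as deposited, with no offset. The number of arrays limits precision.

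Groups come from the labelled genotype. Of 45101 probe sets 64 controls were left out, and those whose mean over 6 arrays reached the 40th percentile (4.00) were tested: 27022. The test was limma 3.58.1 under R 4.3.3 (lmFit, then eBayes, its trend option on; two-sided, Benjamini-Hochberg over all tested, threshold 0.05). The labels call the animals biological replicates. Of the probe sets, 34945 had 1 gene symbol, 932 several and 9160 none; symbols were updated through RefSeq identifiers (34741 found). The probe set with the highest mean stood for a gene. The text names all 10 genes with every probe set. Of each list other than the cell type markers it names the called genes and the 3 smallest p. Marker genes and the genes Foxf2, Cnn1, Actg2, Gucy1a1, Gucy1b1 and Mcam were named after their values were seen. The genes and lists were chosen with earlier results of these data known. Of the 48 pathway genes 6 are not analysed here. Alternatives were quantile normalization, an offset of 64, other filters, array weights, a block for the replicate number, a cardiac covariate, eBayes without the trend, leaving out each array, and averaging the probe sets of a gene. A covariate for fetal sex, read from Xist, and the within-array differences were chosen after seeing the data. Before use, the fitting code was tested on simulated data. Correlations of the deviations of same-numbered arrays were -0.01, 0.20 and 0.14, and by themselves do not decide whether the numbers are pairs. The labels state no pairing, so the numbers were not taken as pairs in the reported fit. Figures used matplotlib 3.10.9 in Python 3.11.15.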

Additional observations from a re-analysis of the deposited data

How the results depend on the processing

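Of the 963 called probe sets of the whole array, counts outside 1.5 times this were 171 without the intensity trend, 535 with the cardiac covariate, 587 with fetal sex as a covariate, and 314 to 495 without 1 array. Probe sets of the 10 genes called higher numbered 1 as reported and 2 under quantile normalization, the offset of 64, the filter at the 60th percentile and the replicate block, where the other Pdgfc probe set passed too; they numbered 0 without the intensity trend and 0 to 1 without 1 array. Those called lower numbered 1 as reported, 2 with the filter at the 60th percentile, which added the other Pdgfa probe set (adjusted p = 0.049), 0 without the intensity trend and with the cardiac covariate, and 0 to 1 without 1 array. The count of the pathway list was 1 as reported, 2 under quantile normalization, 3 with the replicate block, 0 without the intensity trend and with the cardiac covariate, and 0 to 1 without 1 array; that of the other pericyte genes was 1, with 0 without the intensity trend and with the cardiac covariate, and 0 to 1 without 1 array. The replicate numbers share no known origin, and Pdgfc (0.73, adjusted p = 0.045) and Higd1b (adjusted p = 0.017) kept their calls under the block.

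The sign held in all 16 alternatives for 8 of the 10 genes, all but Cspg4 and Notch3. That of Cspg4 turned with array weights (-0.0115), with the mean of its probe sets (-0.13) and without 1 array (-0.0873 to 0.15), and that of Notch3 likewise (-0.0263, -0.17 and -0.0566 to 0.14). Among dimmer probe sets the sign turned for Pdgfd with the cardiac covariate (0.11; -0.35 to 0.01 without 1 array), for Pdgfra without 1 array (-0.27 to 0.0786), for Pdgfrb under quantile normalization (0.0011; -0.11 to 0.0886 without 1 array), and for Rgs5 under quantile normalization (0.0459), the offset (0.0366) and array weights (0.0063; -0.38 to 0.52 without 1 array) and, in its dimmest probe set, with the cardiac covariate (-0.10; -0.16 to 0.28 without 1 array). None of these values passed the test, and the cause was not tested. Quantile normalization shifted the median of all tested probe sets to 0.02.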
